A study of Rattus norvegicus with 6 samples.

Results

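Fibronectin, the thrombospondins and 7 other secreted glycoproteins of the extracellular matrix were followed in a rat mammary tumour line, LN4D6, with and without CREB3L1. The 10 genes are Fn1, Tnc, Thbs1, Thbs2, Postn, Mmrn2, Ecm1, Fbn1, Fbln1 and Fbln2. They were found as every probe set whose annotation gave exactly 1 gene symbol from that list, which came to 11 of 31042 tested probe sets and to 9 of the 10 genes. No probe set carried Thbs1 as its single symbol, so its expression was not analysed here, and only its promoter was searched. The study compared 3 arrays of LN4D6 cells that had not been transfected with 3 arrays of LN4D6 cells transfected with CREB3L1, a transcription factor anchored in the endoplasmic reticulum membrane until proteases cut it free. All cells were grown at 37 °C in 5% CO2. The sources used here do not say whether the transfected cells are a single clone, how they were selected or whether the control cells received an empty vector. Values are log2 RMA expression values, levels are given as mean ± SD (n = 3 arrays per group), and a difference is the CREB3L1 mean minus the untransfected mean in log2 units, with its standard error. Adjusted p-values are from limma with Benjamini-Hochberg adjustment over all 31042 probe sets and a threshold of 0.05. A log2 value of 5 was taken as the background level.

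Matrix glycoproteins are large secreted proteins that give the matrix both its structure and its signals to cells. Fibronectin is laid down as fibrils that cells grip through integrins, fibrillin builds the microfibrils that hold elastin and latent TGF-beta, and fibulins bridge these fibres to other matrix parts. Tenascin-C, thrombospondins and periostin are matricellular proteins, made in quantity during wound repair and in tumour stroma, where they loosen or redirect cell adhesion. Multimerin-2 is a matrix protein known best from blood vessels, where it lies beside endothelial cells.

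Probe sets of several of these genes read well above background, and those of others did not rise above it. In both groups Fn1, Tnc, Ecm1, Mmrn2 and 1 of the 2 Fbn1 probe sets lay above the background level. The second Fbn1 probe set straddled it. Thbs2, Postn, Fbln2 and both Fbln1 probe sets lay below it in both groups. At an adjusted p below 0.05, 1 of the 11 probe sets was higher in CREB3L1 cells and 1 was lower, against 0.425% and 0.963% of all tested probe sets. The higher one was Mmrn2 and the lower one was Fn1. The members were chosen with earlier results of these data known, so counts set beside such shares, here and below, are no test of the group. The groups did not overlap for 2 of the 11 in the direction of a higher level (6.52% of all probe sets) and for 3 of the 11 in the direction of a lower level (7.75%). The lower ones include both Fbn1 probe sets. Counted by gene at its brightest probe set, 2 of the 9 were higher and 2 lower without overlap, against 9.0% and 10.7% of all genes. At 1 probe set a gene, the median difference of the 9 measured genes was -0.031, against -0.0053 for all 14217 genes. It lay near 0 with 4 of the 9 genes below background in both groups. With all arrays the 5 genes above background in a group had a median of -0.36, against 0.0056 for all such genes. That median is the difference of Fn1. Without CREB3L1 replicate 3 the 5 differences were 2.09 for Mmrn2, 0.26 for Ecm1, -0.10 for Tnc, -0.33 for Fn1 and -0.79 for Fbn1. The middle one is then that of Tnc.

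CREB3L1 replicate 3 stood apart from the other 5 arrays, with Pearson correlations across probe sets of 0.984 to 0.989 with them. Its control probe sets at the 3' and 5' ends of Gapdh lay 4.77 apart, against -0.16 to -0.10 on the others (3' minus 5'), and those of beta-actin 7.44 apart, against 2.35 to 3.41. The differences of members above background and the counts of calls are therefore given with and without this array, and the part of the 3' to 5' gap in any single difference was not tested. Without it, 1 of the 11 probe sets was higher and 1 lower, again Mmrn2 and Fn1, against 1.54% and 2.44% of all probe sets. The transfected gene could not be followed, since the rat Creb3l1 probe set read 3.36 ± 0.02 in untransfected and 3.39 ± 0.03 in CREB3L1 cells (difference 0.02 ± 0.03, adjusted p = 0.9998), below background in both. The construct's species is not given in the sources used here, so this value checks neither label nor transfection.

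**Figure D1:**
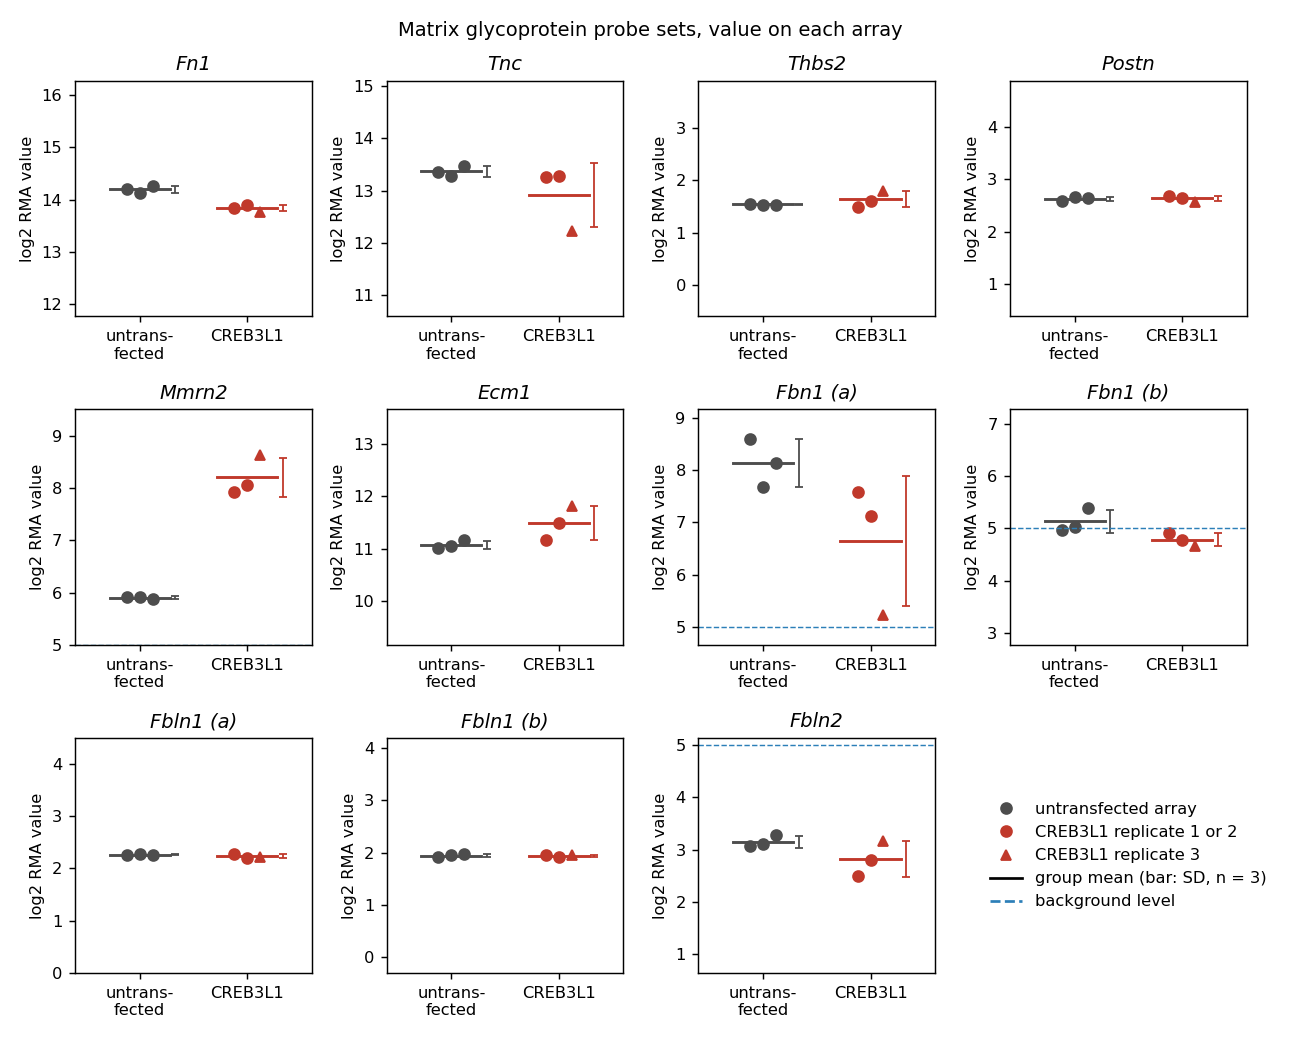
Log2 RMA value on each array (y axis, 4.5 log2 units in every panel) for the 11 matrix glycoprotein probe sets, with untransfected arrays in grey and CREB3L1 arrays in red (replicate 3 as a triangle), lines for group means and bars for the SD. The (a) probe set of a gene is the brighter one. Mmrn2 shows the widest separation of the groups, Fn1 a narrow one, and in Tnc and Fbn1 (a) the triangle lies far below the other CREB3L1 arrays.

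Mmrn2, which encodes multimerin-2, was the member with the largest change that passed the test. On the untransfected arrays it read 5.92, 5.92 and 5.87, and on the CREB3L1 arrays 7.93, 8.06 and 8.63. All 3 CREB3L1 arrays lay about 2 log2 units or more above all untransfected arrays, and the untransfected arrays lay close together just above background. The mean rose from 5.91 ± 0.03 to 8.21 ± 0.37, a difference of 2.30 ± 0.19 (95% interval 1.83 to 2.77, adjusted p = 0.00915), which is 4.92-fold. With a background level of 6 in place of 5 the untransfected mean falls below it, and the fold becomes at least 4.61. Without CREB3L1 replicate 3, its highest array, the difference was 2.09 ± 0.05 (adjusted p = 2.00e-04), or 4.25-fold. The size of the rise was 2.28 to 2.44 with any other array left out. The adjusted p then missed the threshold without untransfected replicate 1 (0.0670), 2 (0.0642) or 3 (0.0563) and without CREB3L1 replicate 2 (0.0510), and it was 0.0293 without CREB3L1 replicate 1.

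Multimerin-2 is known from endothelium, so endothelial markers were read beside it. Of 11 listed markers 9 were measured, and by group mean 0 lay above background with all arrays. Pecam1 (2.49 and 2.47 in untransfected and CREB3L1 cells), Kdr (2.73 and 2.71) and Tie1 (2.28 and 2.20) lay far below it. The highest was Egfl7, which encodes a protein secreted by endothelial cells. It read 5.03, 4.99 and 4.60 on the untransfected and 5.14, 5.15 and 3.56 on the CREB3L1 arrays. Its means were 4.87 and 4.62, and the CREB3L1 mean without replicate 3 was 5.15, above background (difference 0.27 ± 0.14, adjusted p = 0.514). Their mean level per array was 2.60 to 2.67 in untransfected and 2.40 to 2.67 in CREB3L1 cells, and limma called 0 of the 9, with 0 higher and 1 lower at an unadjusted p below 0.05, against 6.05% and 7.99% of all genes. Clec14a and Cd93, which encode endothelial surface receptors that bind multimerin-2, were below background in both groups, at 3.61 and 3.62 for Clec14a and at 2.95 and 2.90 for Cd93.

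The gene lies beside Sncg, which encodes gamma-synuclein, a small protein of the synuclein family. RefSeq places the pair on opposite strands, with the 5' ends of their gene records facing each other across a stretch of 108 bases in assembly GRCr8. That stretch is shown because both neighbours were higher in CREB3L1 cells. It is read 5' to 3' on the strand of Mmrn2, chr16:9712073-9712180, plus strand, from the RefSeq promoter table, and capitals mark a GC box (GGGCGG, searched on both strands).
Mmrn2-Sncg: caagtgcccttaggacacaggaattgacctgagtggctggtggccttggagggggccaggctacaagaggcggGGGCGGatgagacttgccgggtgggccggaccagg
The stretch is 65.7% G and C. The start site used for the Mmrn2 promoter window lies past the end of this stretch, inside the gene record. From that start site the GC box begins at -59. A GC box occurs in 33.1% of all 33469 tabulated promoters, windows of 300 bases.

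Sncg read 10.99, 10.88 and 10.85 on the untransfected and 12.09, 11.92 and 11.60 on the CREB3L1 arrays. The groups did not overlap. It rose by 0.96 ± 0.13 (adjusted p = 0.0425), which is 1.95-fold, and by 1.10 ± 0.07 (adjusted p = 0.00353) without CREB3L1 replicate 3. Leaving out any other array gave 0.85 to 1.003 with adjusted p from 0.104 to 0.190. Sncg was singled out after its value was seen. Of the 6 measured genes nearest Mmrn2, 3 on each side, limma called 2, the other being Ldb3, which encodes a sarcomere protein and was lower by 1.70 ± 0.09 (adjusted p = 0.00250) with both groups below background. Ldb3 kept its call without CREB3L1 replicate 3 (-1.72 ± 0.10, adjusted p = 0.00279), and the count was again 2 of 6. Of all genes, those below background included, limma called 0.577% higher and 1.52% lower with all arrays, and 2.02% and 3.7% without CREB3L1 replicate 3. Bmpr1a, a BMP receptor gene on the far side of Mmrn2 from Sncg, gave -0.07 ± 0.24 (adjusted p = 0.9998), and 0.20 ± 0.07 (adjusted p = 0.245) without that array.

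Binding sequences of the CREB3 and ATF6 families were searched in the promoters that RefSeq tabulates for 7 of the 10 genes, namely Postn, Ecm1, Thbs1, Fbn1, Fbln2, Tnc and Mmrn2. Each window runs from 250 bases before to 50 bases after the start site in GRCr8, and both strands were read. The cyclic AMP response element TGACGTCA was found in 0 of the 7 (1.83% of all promoters) and TGACGTGG, the core of the unfolded protein response element, in 0 of the 7 (0.595%). Their shared part TGACG, which both longer motifs contain, was also found in 0 of the 7, against 21.2% of all promoters. CCACG was found in 2 of the 7, Ecm1 and Fbln2, against 31.6%. Absence says only that these letters are not in these windows.

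Fn1, the fibronectin gene, was the member that fell. It read 14.20, 14.13 and 14.26 on the untransfected arrays and 13.84, 13.89 and 13.77 on the CREB3L1 arrays. The groups did not overlap, and the spread within each was small. The mean went from 14.20 ± 0.07 to 13.83 ± 0.06, a difference of -0.36 ± 0.05 (95% interval -0.49 to -0.23, adjusted p = 0.0491), which leaves 77.7% of the untransfected level. CREB3L1 replicate 3 differed from the mean of the other CREB3L1 arrays by only -0.10 here, and without it the difference was -0.33 ± 0.05 (adjusted p = 0.0373). Its call stood close to the threshold. It was lost with each array centred on its median (adjusted p = 0.107), with dim probe sets left out (0.0826), with a mean-variance trend (0.0784), with robust eBayes (0.0517) and without any 1 array other than CREB3L1 replicate 3 (0.119 to 0.198). The direction and size held in all of these, with differences of -0.40 to -0.33.

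The measured neighbour after Fn1, Mreg, which encodes the melanosome transport protein melanoregulin, fell as well, by 0.41 ± 0.04 (adjusted p = 0.0219), and was singled out after its value was seen. The array values were 13.14, 13.17 and 13.24 without and 12.72, 12.82 and 12.78 with CREB3L1. Limma called 1 of the 6 genes nearest Fn1, 3 on each side, and their differences ran from -1.08 for Pecr to 0.38 for Bard1. Without CREB3L1 replicate 3 it called 4 of the 6, namely Mreg (-0.41, adjusted p = 0.0226), Pecr (-0.59, 0.0338) and Xrcc5 (-0.46, 0.0438) as lower and Bard1 (0.31, 0.0432) as higher. Of all genes, 0.577% were called higher and 1.52% lower with all arrays, and 2.02% and 3.7% without CREB3L1 replicate 3. Those shares include genes below background, whereas most of these neighbours lay above it. The share among genes above background was not computed. Mreg lost its call with median centring (0.0505), with dim probe sets left out (0.0520), with a mean-variance trend (0.0681) and without any 1 array other than CREB3L1 replicate 3 (0.0762 to 0.117). For the other 7 measured members, 0 of their 6 nearest measured genes each passed the test, with or without that array.

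**Figure D2:**
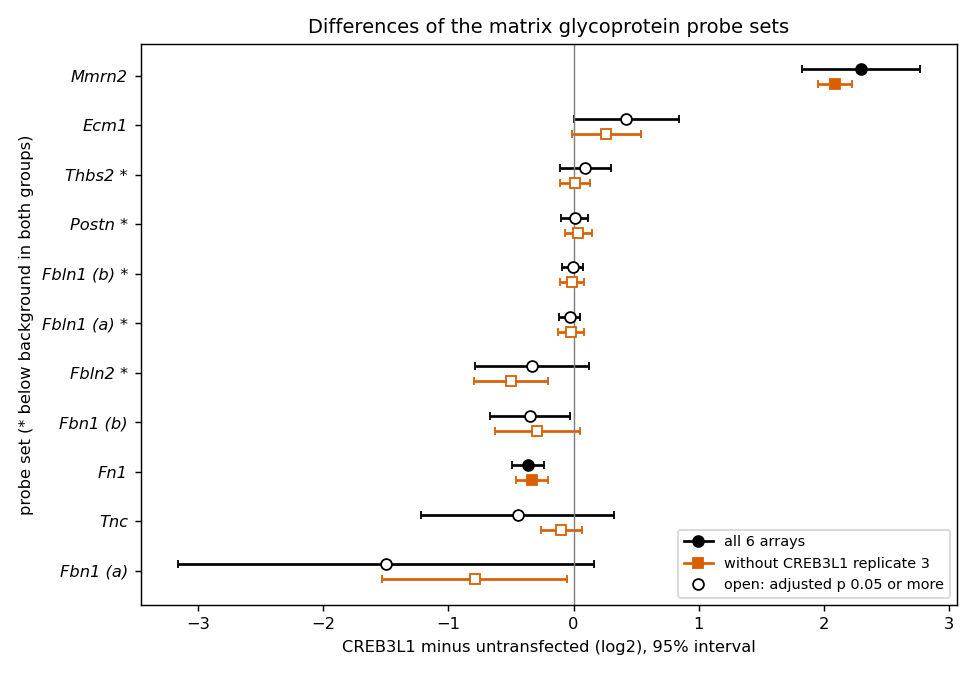
Difference between CREB3L1 and untransfected cells (x axis, log2, with 95% intervals) for each of the 11 probe sets, with all 6 arrays (black circles) and without CREB3L1 replicate 3 (orange squares). Filled symbols have an adjusted p below 0.05. Mmrn2 at 2.30 and Fn1 at -0.36 are filled in both settings, and the intervals of Tnc and Fbn1 (a) shrink without replicate 3.

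Tnc, which encodes tenascin-C, was well above background and did not pass the test. It read 13.36, 13.27 and 13.47 in untransfected cells and 13.26, 13.29 and 12.22 in CREB3L1 cells. Replicates 1 and 2 of CREB3L1 lay within or just below the untransfected range, and replicate 3 lay 1.05 below their mean. With all arrays the difference was -0.45 ± 0.31 (95% interval -1.22 to 0.33, adjusted p = 0.949). Without replicate 3 it was -0.10 ± 0.07 (95% interval -0.26 to 0.07, adjusted p = 0.734). For the CREB3L1 group that narrower interval rests on replicates 1 and 2 only, and it sets no firm limit to a fall.

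Ecm1 encodes extracellular matrix protein 1, which binds other matrix proteins such as perlecan and fibulins. It read 11.01, 11.06 and 11.17 without and 11.17, 11.50 and 11.82 with CREB3L1. The groups did not overlap, although the lowest CREB3L1 array and the highest untransfected array both round to 11.17. The difference of 0.42 ± 0.17 did not pass the test (95% interval -0.00033 to 0.84, adjusted p = 0.518), nor did the 0.26 ± 0.11 without replicate 3 (adjusted p = 0.384).

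Fbn1, the gene of fibrillin-1, was read by 2 probe sets. The brighter one gave 8.59, 7.69 and 8.14 in untransfected and 7.58, 7.12 and 5.23 in CREB3L1 cells. All CREB3L1 arrays lay below all untransfected ones, by a narrow margin for replicate 1 and by a wide one for replicate 3, which lay 2.12 below the mean of the other CREB3L1 arrays. The difference was -1.50 ± 0.66 (95% interval -3.16 to 0.17, adjusted p = 0.606). Without replicate 3 it was -0.79 ± 0.29 (95% interval -1.53 to -0.051, adjusted p = 0.306). The second probe set read 4.97, 5.03 and 5.38 against 4.90, 4.78 and 4.66, again without overlap, with the CREB3L1 mean below background and a difference of -0.35 ± 0.13 (adjusted p = 0.454). Without replicate 3 it was -0.29 ± 0.13 (adjusted p = 0.456). The mean of both probe sets gave -0.92 ± 0.36 (adjusted p = 0.372 over 14217 genes). Neither probe set passed the test in any setting tried.

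**Figure D3:**
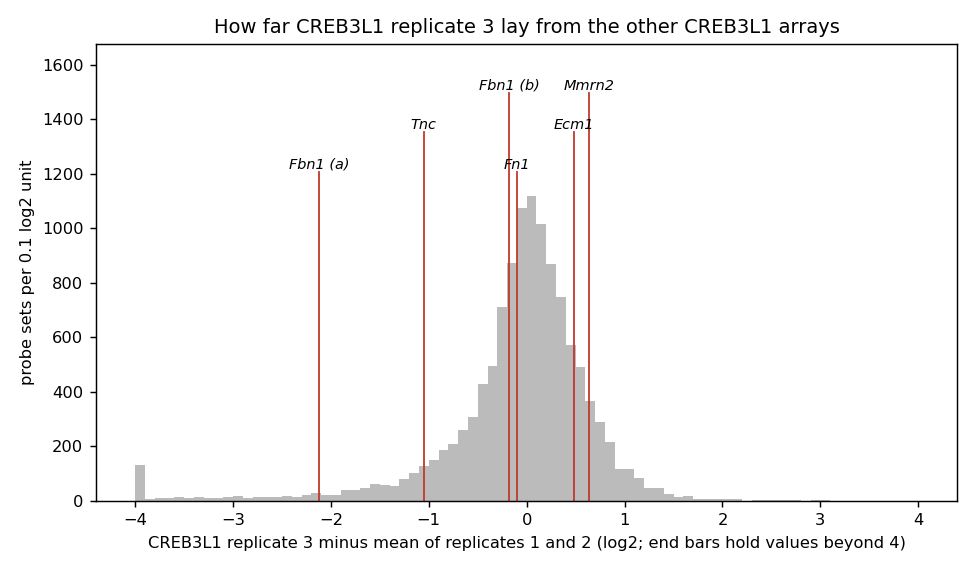
Distribution over 11943 probe sets with a mean at or above background of the value on CREB3L1 replicate 3 minus the mean of replicates 1 and 2 (x axis, log2), as probe sets per 0.1 log2 unit (y axis), with the 6 matrix glycoprotein probe sets that reached background in a group as red lines. Fbn1 (a) at -2.12 and Tnc at -1.05 lie in the lower tail, Fn1 at -0.10 and Fbn1 (b) at -0.18 near the centre, and Ecm1 at 0.48 and Mmrn2 at 0.63 on the upper side.

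Replicate 3 moved these genes by amounts found across the array. Over the 11943 probe sets with a mean at or above background, its deviation from the other CREB3L1 arrays had a median of 0.02, with 8.69% of probe sets lower by over 1 and 3.47% higher by over 1. Fbn1 on its brighter probe set lay at the 3.18th percentile of these deviations and Tnc at the 8.13th, while Fn1 lay at the 39.3rd, Ecm1 at the 83.4th and Mmrn2 at the 89.4th.

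Transcripts of the remaining members were not measured above background. Thbs2, which encodes thrombospondin-2, read 1.50 to 1.80 over the 6 arrays, and Postn, the periostin gene, 2.58 to 2.69. The fibulin-1 gene Fbln1 read 2.20 to 2.28 on its brighter and 1.91 to 1.97 on its second probe set, and the fibulin-2 gene Fbln2 read 2.49 to 3.28. Their differences were 0.09 ± 0.08, 0.0081 ± 0.04, -0.03 ± 0.03, -0.0077 ± 0.03 and -0.33 ± 0.18 in that order, with adjusted p from 0.796 to 0.9998. No fold is given for them, since a value below background cannot tell a low level from none, or either from a probe set that responds poorly. How well these probe sets respond was not tested.

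The lists of other matrix glycoproteins and of receptors were counted at 1 probe set a gene, the brightest. Of 63 other matrix glycoprotein genes 55 were measured, 14 of them above background in a group. Limma called 0 higher and 1 lower, against 0.577% and 1.52% of all genes, with 4 higher and 3 lower at an unadjusted p below 0.05, against 6.05% and 7.99% of all genes. The gene that fell was Igfbp7, whose product binds insulin-like growth factors and is deposited around vessels. It read 7.62, 7.62 and 7.98 in untransfected and 4.56, 3.69 and 5.01 in CREB3L1 cells. The CREB3L1 mean of 4.42 ± 0.67 lay below background, and the gene was at least 6.68-fold lower (difference -3.32 ± 0.35, adjusted p = 0.0202). It lost its call without untransfected replicate 1, 2 or 3 or CREB3L1 replicate 1 (0.0914 to 0.104), and the adjusted p was 0.00574 without CREB3L1 replicate 3. With a background level of 6 the bound is 3.34-fold.

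Without CREB3L1 replicate 3, 0 of the 55 were higher and 2 lower, against 2.02% and 3.7% of all genes. The second was Ltbp4, which encodes a binding protein of latent TGF-beta, at -0.48 (adjusted p = 0.0359) against 0.14 ± 0.54 (adjusted p = 0.9998) with all arrays, since it read 1.87 higher on replicate 3 than on the other CREB3L1 arrays. It is named for that count, outside the rule for named genes. The median difference of the 55 genes was -0.0064 with all arrays, against -0.0053 for all genes. That of the 14 above background was 0.11 with all arrays, against 0.0056. Without CREB3L1 replicate 3 the median of the 55 was 0.0010, against -0.00026 for all genes.

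Of 17 receptor genes for these glycoproteins, integrin subunits, syndecans and the thrombospondin receptors Cd36 and Cd47 among them, 15 were measured and 7 lay above background in a group. Limma called 0 higher and 0 lower, against 0.577% and 1.52% of all genes. At an unadjusted p below 0.05, 0 were higher and 1 lower, against 6.05% and 7.99% of all genes. Without CREB3L1 replicate 3 limma called 0 higher and 1 lower, against 2.02% and 3.7% of all genes. With all arrays the median difference was -0.027, and that of the 7 above background was -0.12. Without CREB3L1 replicate 3 the median of the 15 was -0.032, against -0.00026 for all genes. Itgb5, the beta-5 subunit that pairs with alpha-v, had the smallest p. Its bright probe set read 8.68, 8.86 and 8.99 against 7.84, 8.18 and 8.15, without overlap, a difference of -0.78 ± 0.12 (adjusted p = 0.0660). It passed the test without CREB3L1 replicate 3 (-0.83, adjusted p = 0.0423) and with dim probe sets left out (0.0423), and its other 2 probe sets lay below background in both groups. Cd36, next by p, lay below background in both groups (difference -1.02 ± 0.48, adjusted p = 0.659). The alpha-5 subunit gene Itga5, which with beta-1 forms the main fibronectin receptor, was below background at 2.60 and 2.56, while Itgb1 read 14.32 ± 0.03 and 14.20 ± 0.26 (difference -0.12 ± 0.13, adjusted p = 0.9998) and differed by 0.03 ± 0.04 without CREB3L1 replicate 3 (adjusted p = 0.9994).

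**Figure D4:**
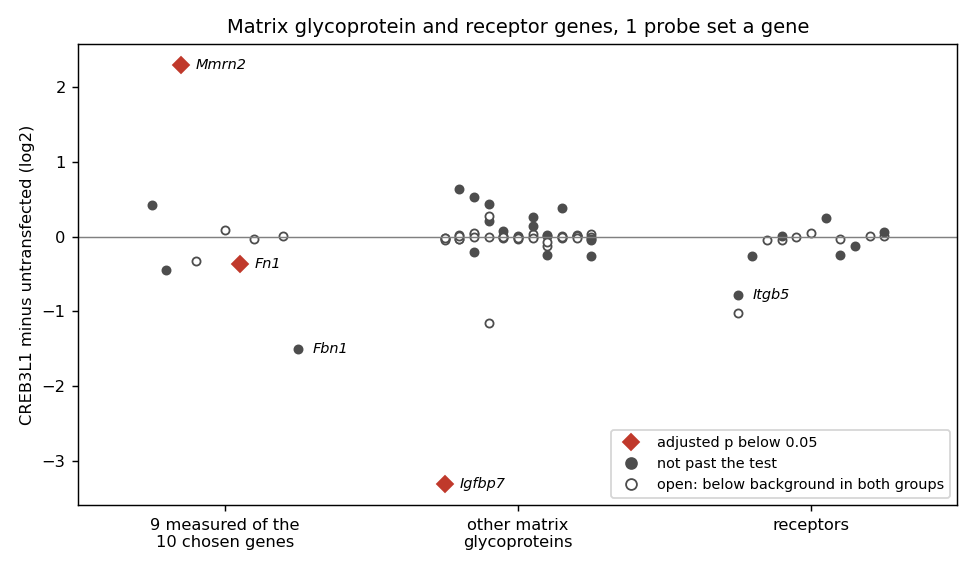
Difference between CREB3L1 and untransfected cells (y axis, log2) for the brightest probe set of each measured gene among the 10 chosen genes, 55 other matrix glycoproteins and 15 receptors. Red diamonds passed the test and open circles lay below background in both groups. Mmrn2, Fn1 and Igfbp7 are the 3 red points, and most other points lie near 0.

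The genes whose values followed the called members most closely over the 6 arrays were picked by Pearson correlation among 7647 genes with a mean above background. All 6 arrays enter, in 2 groups, so the correlation mostly reflects the difference between groups and is a description. For Mmrn2 they were Tnfaip3, which encodes the NF-kB inhibitor A20 (r = 0.998, difference 1.10 ± 0.08), the junction gene Jam3 (r = 0.996, 2.44 ± 0.21) and the imprinted gene Peg12 (r = 0.996, 2.005 ± 0.12). For Fn1 they were the peroxisome gene Pex11a (r = 0.993, -0.76 ± 0.09), the lysosomal peptidase gene Tpp1 (r = 0.990, -0.58 ± 0.08) and the receptor gene Notch1 (r = 0.987, -1.72 ± 0.20). All 6 passed the test with adjusted p from 0.00410 to 0.0425, which the way they were picked made likely and which is no further support. All 6 passed without CREB3L1 replicate 3 as well. Notch1 and Pex11a lost their call without any 1 of the other arrays, and Tpp1 and Jam3 without most of them. Peg12 and Tnfaip3 kept theirs without any 1 array.

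**Figure D5:**
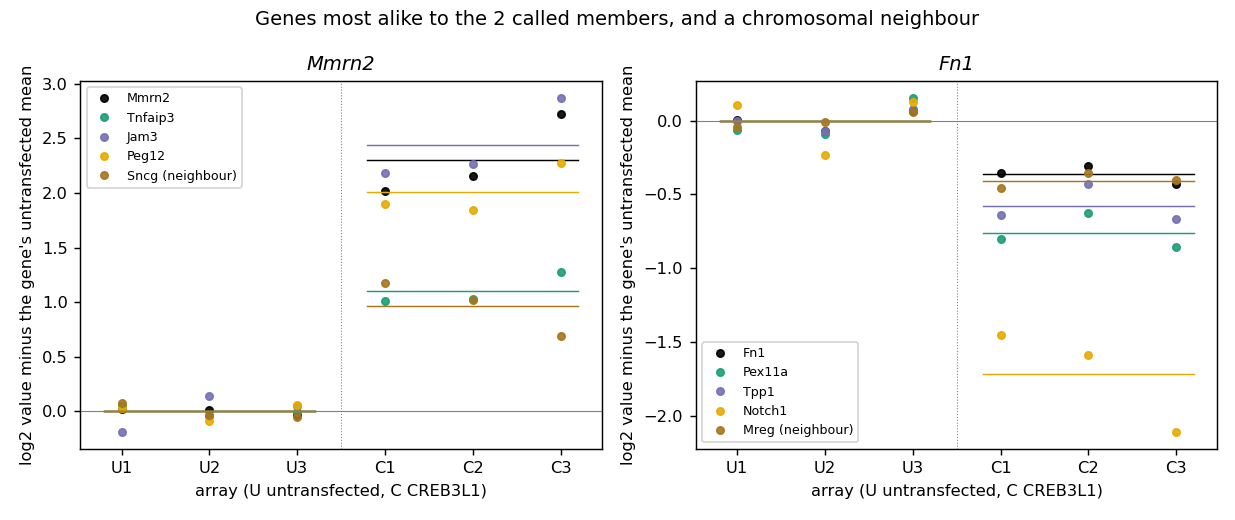
Log2 value on each array minus the gene's own untransfected mean (y axis) for Mmrn2 (left) and Fn1 (right), each with its 3 most correlated genes and a neighbouring gene, on untransfected (U1 to U3) and CREB3L1 (C1 to C3) arrays. Lines are group means. Mmrn2, Jam3, Peg12 and Tnfaip3 have their highest value on C3, where Sncg has its lowest CREB3L1 value.

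The label of a mammary tumour line was read against cell type markers. The keratin genes Krt5, Krt14 and Krt8 were high in both groups, at 14.67 ± 0.11, 15.25 ± 0.13 and 13.24 ± 0.07 in untransfected cells, while Epcam, Cdh1, Krt18, Krt19, Cldn3 and Cldn4 lay below background. Of the other myoepithelial and basal markers, Acta2 was above background (9.40 and 9.26 in untransfected and CREB3L1 cells). Krt17 (2.16 and 2.13), Myh11 and Cnn1 lay below it in both groups. By group mean with all arrays, above background in a group were 1 of 7 epithelial, 3 of 6 myoepithelial and basal, 1 of 8 fibroblast, 0 of 9 endothelial and 2 of 7 macrophage markers that were measured. Without CREB3L1 replicate 3 the endothelial count was 1 of 9, Egfl7, and the other counts were the same. The fibroblast marker was Col3a1, which gave 0.19 ± 0.08 (adjusted p = 0.591), and the macrophage markers were Cd14 and Csf1r, with Ptprc below background. Limma called 0 markers of any of these lists with or without CREB3L1 replicate 3. With all arrays 0 were higher and 1 lower at an unadjusted p below 0.05, against 6.05% and 7.99% of all genes.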

How the data were processed

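Total RNA was labelled with biotin and hybridised to Affymetrix 3' arrays. The deposited log2 values are RMA values made by the authors in Partek 6.6 (submitters' processing notes). No source used here gives the log base or probe-level settings, and the range of 0.27 to 17.2 was taken as log2. The table was used as deposited. Of 31099 probe sets 57 controls were set aside. Symbols were those of GEO's platform annotation, checked by gene ID against RefSeq (GRCr8). Of the tested probe sets 20826 had 1 symbol, 436 several and 9780 none listed. Only 6 olfactory receptor probe sets were named, fewer than the 20 needed to set background from them, so a level of 5 was used.

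The comparison used limma 3.58.1 under R 4.3.3 (lmFit, eBayes without trend, two-sided). The fit was run on simulated data with independent normal noise and the same spread in both groups. Such data hold no deviant array like CREB3L1 replicate 3, so that run does not check the calls made here. Separate cultures are not stated in the labels, and p-values then measure only the spread between the 3 arrays per group, which may be technical. No arrays were identical. The number of arrays limits the precision. The members and lists were chosen with earlier results of these data known. Named genes are the members, Creb3l1, up to 6 genes past the threshold (or the 2 with the smallest p) from each list, and the 3 genes most correlated with each called member. Outside this rule, and with values seen, stand the neighbouring genes of Mmrn2 and Fn1, Ltbp4, Itga5, Itgb1, Clec14a, Cd93 and the cell type markers. Alternatives are in the closing section.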

Additional observations from a re-analysis of the deposited data

How the results depend on the processing

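The count of higher members (1, Mmrn2) stayed at 1 with quantile normalisation, median centring, dim probe sets left out, a mean-variance trend and robust eBayes, and was 0 to 1 with single arrays left out. The count of lower members (1, Fn1) was 1 with quantile normalisation, 0 with median centring, dim probe sets left out, a mean-variance trend or robust eBayes, and 0 to 1 with single arrays left out. Other matrix glycoproteins called lower numbered 0 to 2 with single arrays left out, and receptors 0 to 1, with 1 when dim probe sets were left out. Among the 25 differences refitted under these settings, signs turned only for Fbln1 on its second probe set, Postn and Ltbp4. Fbln1 gave 0.0010 with quantile normalisation, 0.0030 with median centring and -0.024 to 0.0068 with arrays left out. With arrays left out Postn gave -0.017 to 0.039 and Ltbp4 -0.48 to 0.48. Several named genes outside these 25, Itgb1, Bmpr1a and Egfl7 among them, also turned sign without CREB3L1 replicate 3. Of the 12 named differences past the test, 0 lost their call with quantile normalisation, 3 with median centring, 2 with dim probe sets left out (of 11 tested there), 4 with a trend, 1 with robust eBayes, 0 without CREB3L1 replicate 3 and 7 to 9 without any other array. With fewer arrays fewer probe sets pass, except without CREB3L1 replicate 3 (479 higher and 756 lower of all, against 132 and 299). Share of higher among all calls was 30.6% with all arrays, 35.8% with quantile normalisation and 28.4% with median centring. No paired analysis was possible because the labels give no replicate numbers that groups share. Probe sets below background limit what can be said of Thbs2, Postn, Fbln1 and Fbln2.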

Other observations

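Among the other matrix glycoprotein genes, 4 were higher on all 3 CREB3L1 arrays than on any untransfected array and did not pass the test. A further 3 were lower without overlap, Igfbp7 and, below background in both groups, Tgfbi (-1.15) and Nid1 (-0.12). They are named here for having no overlap, after their values were seen. Of all genes, at 1 probe set each, 9.0% were higher and 10.7% lower without overlap. The 4 and 3 of 55 do not exceed those shares and are no result about the list. Of the 55 genes 41 lay below background in both groups, and the share among genes above background was not computed. Ccn4 and Ccn1, members of the CCN family of matricellular signalling proteins, gave 0.53 ± 0.13 (adjusted p = 0.187) and 0.21 ± 0.08 (adjusted p = 0.462) in limma. Crim1, which encodes a membrane protein that binds BMPs, gave 0.64 ± 0.21 (adjusted p = 0.361), and the guidance gene Slit2 gave 0.26 ± 0.10 (adjusted p = 0.491).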
